A study of Rattus norvegicus with 8 samples.

Results

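The genes described here are those whose read counts were lower after nerve injury in the dorsal root ganglion (DRG) of both male and female rats. They were chosen by measured values of these libraries. CPM, the count of a gene divided by all counts of its library and multiplied by 1000000, had to average at least 1 over the 8 libraries. The mean in chronic constriction injury (CCI) had to be at most 0.67 times the naive mean in males and also in females. In each sex the highest CCI library had to lie below the lowest naive library. Of 32623 genes in the table, 14200 had a mean CPM of at least 1 and 489 met these values. A further step removed 13 of them by name, Mbp and Bcas1 of myelin, Leng8, and solute carriers, collagens, Adamts proteases and other families, so that 476 members remained. Because the comparison of CCI with naive rats chose the members, its values and calls are given for them as a description, not as a test. Nothing is supported by them.

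RNA was measured in 8 libraries, each from the pooled ipsilateral L4-L6 DRGs of 1 Sprague-Dawley rat, with 2 naive males, 2 CCI males, 2 naive females and 2 CCI females. All were adult rats of the same strain. In CCI the sciatic nerve is loosely tied with silk sutures, and naive rats had no operation, so the effects of surgery and of the ligatures cannot be told apart. The DRG as a whole was ground up, and in such bulk RNA fewer cells of a type and less RNA per cell cannot be told apart. The purpose of the series was to compare gene regulation in the DRG between the sexes before and after injury.

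The DRG holds the cell bodies of sensory neurons, each wrapped by satellite glia, together with the myelinating Schwann cells of their axons, fibroblasts, vessels and resident immune cells. After damage to the axon, neurons switch on regeneration genes and lower part of their normal programme, while Schwann cells leave the myelinating state. A separate class of transcripts, among them those of the splicing kinases Clk1 and Clk4, is known for introns that are retained in the nucleus and spliced when needed, so that their level in poly(A) RNA can follow the handling of RNA as well as transcription.

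Library totals ranged from 39489103 to 60818457 counts. The members took 2.43% and 2.16% of all counts in the naive males, 1.05% and 1.03% in the CCI males, 2.12% and 1.95% in the naive females, and 1.39% and 1.07% in the CCI females. As a check of the tissue label, Nefh, the heavy neurofilament of large sensory neurons, lay between 3482 and 5648 CPM over the 8 libraries, and Calca, which encodes the neuropeptide CGRP, between 634 and 1256 CPM. The summed CPM of 8 haemoglobin and other erythroid genes was 146 and 1630 in the naive males and 1581 and 2447 in the naive females, against 193 to 265.0 in the 4 CCI libraries. These genes are no members, and the part of residual blood in the members' values was not tested.

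Only 126 of the 476 members (26.5%) have a symbol, which came from the study's own gene tables, against 11.5% of the 16988 genes tested. Those tables list genes that differed in these same libraries, many of them between the sexes, so the named members are not a random draw from all members. Genes of the lists used below were matched through the same symbols, so calls among them were partly built in. Listed genes without an identifier were not seen. The other 350 are known by their Ensembl identifier alone.

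Across the members, the CCI mean was between 0.108 and 0.6697 times the naive mean in males with a median of 0.443, and between 0.095 and 0.6698 times in females with a median of 0.596. Over all genes with a mean CPM of at least 1 the medians were 0.917 in males and 0.953 in females. A ratio of 0.5 or less was found for 312 members in males, for 94 in females and for 79 in both. The ratio was lower in males than in females for 416 members (87.4%), against 57.4% of genes with a mean CPM of at least 1. The rule put the same limit on both sexes, and the male ratios ran far below it while the female ratios crowded near it. All 4 CCI libraries lay below all 4 naive libraries for 427 members (89.7%), against 19.8% of the genes tested. The rule largely sets this share, because it asks for the same order within each sex. Of the members, 401 were called lower in CCI males and 161 in CCI females by edgeR's quasi-likelihood test, against 12.5% and 2.0% of all genes tested, counts that the rule itself drives. The rule left no room for a member to be called higher in CCI, so the absence of such calls is no result. Of all genes tested, 9.05% were called higher in CCI males and 3.69% in CCI females.

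**Figure D1:**
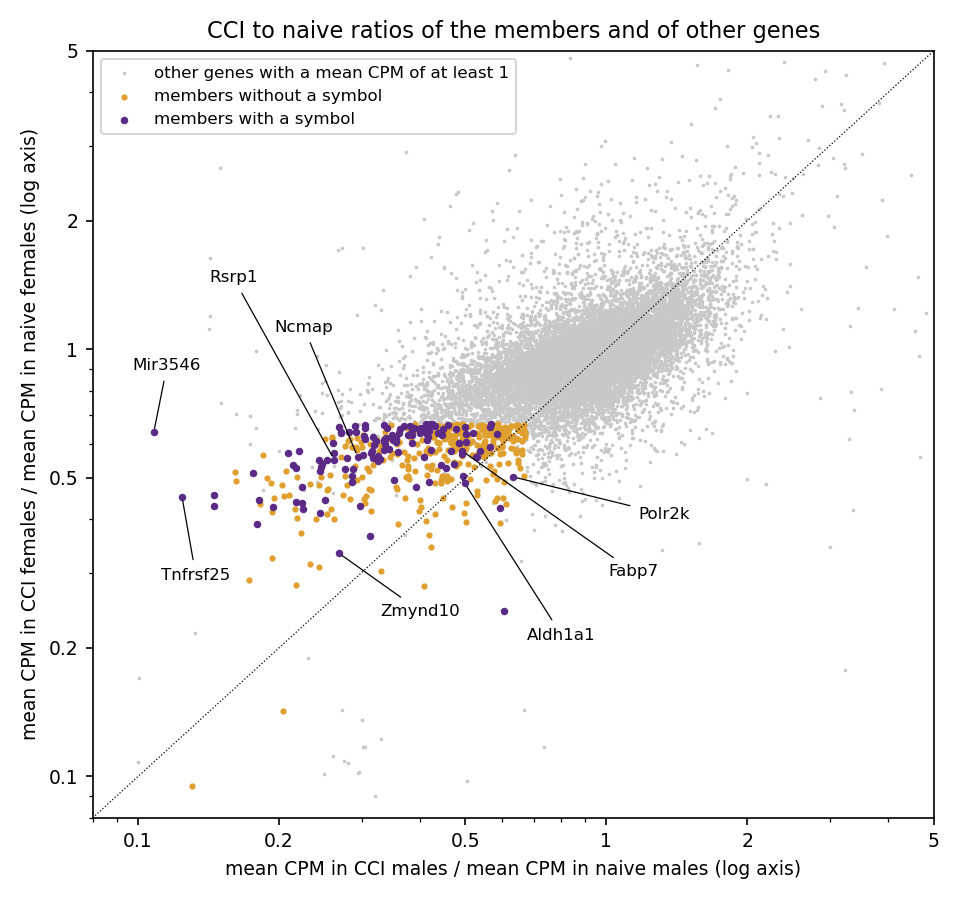
Each point is a gene, with the ratio of mean CPM in CCI to naive males on the horizontal axis and the same ratio in females on the vertical axis, both on log axes. Purple points are the 126 members with a symbol, orange points the 350 without, and grey points other genes with a mean CPM of at least 1 (61 of 13724 lie outside the axes). The members end at 0.67 on both axes by the rule, and most lie above the dotted line of equal ratios, where the male ratio is the lower one.

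Of the 126 named members, 84 were grouped by what their products do, after their values were known, and some of those described below were likewise picked after their values were seen. The order of the groups below follows the path from RNA to protein and from the glial cell to the signals around it.

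The RNA-processing group held 13 members, and all of them were highest in the naive males. Both naive males lay above both naive females for 116 of the 126 named members and for 37.7% of genes tested. Rsrp1, an arginine- and serine-rich protein, had 535 and 401 CPM in the naive males and 132 and 114 CPM in the CCI males. In the naive females it had 154 and 243 CPM, and in the CCI females 131.5 and 88 CPM, so the lower naive female lay not far above the higher CCI female. The CCI mean was 0.262 times the naive mean in males and 0.552 times in females. Snrnp70, the 70 kDa protein of the U1 splicing particle, had 373 and 289 CPM in naive males, 97.8 and 95.3 CPM in CCI males, 114 and 160 CPM in naive females, and 93.8 and 81.3 CPM in CCI females. Clk1, a kinase that phosphorylates splicing factors, had 256 and 207 CPM in naive males against 66.5 and 64.2 CPM in CCI males. Its values in females were 97.7 and 126 CPM in naive and 77.1 and 66.1 CPM in CCI rats. In Snrnp70 and Clk1, as in Rsrp1, the CCI libraries of both sexes came to similar levels, while the naive males stood well above the naive females.

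Pnisr, an arginine- and serine-rich protein that interacts with a nuclear splicing cofactor, had 280 and 220 CPM in naive males and 76.8 and 118 CPM in naive females, with ratios of CCI to naive of 0.279 and 0.558. The cyclin L genes Ccnl1 and Ccnl2, partners of kinases that act in splicing, had ratios of 0.3495 and 0.4275 in males and 0.614 and 0.660 in females. For the second CDC-like kinase, Clk4, the ratios were 0.341 and 0.654. Cirbp, a cold-inducible RNA-binding protein, had 101 and 91.0 CPM in naive males, 37.3 and 36.9 CPM in CCI males, 40.4 and 50.4 CPM in naive females, and 31.8 and 27.4 CPM in CCI females. Akap8l, a nuclear protein related to a kinase anchor, and Ybx2, a germ cell RNA-binding protein, had ratios of 0.402 and 0.2255 in males and 0.653 and 0.423 in females. Over the group, ratios ran from 0.214 to 0.428 in males and from 0.423 to 0.663 in females. All 13 were higher in the first naive male than in the second, none was higher in the first naive female than in the second, and all 13 were higher in the first CCI female than in the second. Without the second naive female only 1 of the 13 still met the rule, and without the second CCI female 4 did, so the place of this group among the members rests on those single libraries in females. Leaving out any of the 4 male libraries kept all 13. Of all 126 named members, 69 met the rule without the second naive female and 74 without the second CCI female.

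A list of 15 genes known for retained introns held 13 with an identifier. Of these 13, 8 are members (Rsrp1, Snrnp70, Pnisr, Clk1, Clk4, Ccnl1, Ccnl2 and the chromatin protein Mbd6), against 126 of all 1960 genes tested with a symbol. Leng8 met the values and was removed by name, and 4 did not meet them. The list was chosen with earlier results of these data known and matched through the study's tables. Its count of members was thus partly built in. Among the 5 that are no member, Leng8, Srrm2 and Luc7l3 were called lower in CCI males by edgeR's quasi-likelihood test (adjusted p under 0.05 and a log2 fold change past 0.5). Srrm2, a scaffold of nuclear speckles, had 786 and 624 CPM in naive males, 325 and 299 CPM in CCI males, 294 and 411 CPM in naive females, and 334 and 304 CPM in CCI females. Its log2 fold change was -1.04 in males (adjusted p = 0.00687) and -0.08 in females (adjusted p = 0.735) by the same test. Luc7l3, a U1-associated splicing factor, had a log2 fold change of -1.10 in males (adjusted p = 0.00565) and -0.37 in females (adjusted p = 0.166). Son and Ddx5, a speckle protein and an RNA helicase, had log2 fold changes of -0.225 and -0.44 in males (adjusted p = 0.0489 and 0.0331), short of the log2 threshold, and 0.12 and -0.03 in females (adjusted p = 0.4265 and 0.884).

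Transcription and chromatin regulators gave 15 members, with ratios of 0.218 to 0.632 in males and 0.440 to 0.6698 in females. Without the second naive female 6 of the 15 still met the rule, and without the second CCI female 7 did. Foxo4, a forkhead factor restrained by insulin and growth factor signalling, had 73.5 and 66.7 CPM in naive males, 31.3 and 28.2 CPM in CCI males, 70.01 and 58.9 CPM in naive females, and 45.8 and 40.5 CPM in CCI females. Both naive groups of Foxo4 overlapped, and the CCI females lay above the CCI males. Heyl, an effector of Notch signalling, and Sox9, a factor of glial and neural crest progenitors, also lay higher in CCI females than in CCI males, although both naive males lay above both naive females, with CCI values of 23.55 and 24.7 CPM in males against 31.0 and 33.1 CPM in females for Heyl, and 3.39 and 2.88 against 5.445 and 4.58 CPM for Sox9. Gli1, the transcriptional effector of Hedgehog signalling, was at 35.4 and 29.5 CPM in naive males and 9.27 and 8.69 CPM in CCI males, and at 17.35 and 21.9 CPM in naive females and 12.2 and 8.43 CPM in CCI females. Irf3, which switches on interferon genes after viral sensing, had ratios of 0.382 and 0.638, and Gtf2a1l, a germ cell form of a general transcription factor, 0.218 and 0.440.

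Polr2k, a small subunit shared by the RNA polymerases, was the named member with the highest male ratio, 0.632, and its female ratio of 0.503 was lower. It had 57.9 and 66.7 CPM in naive males, 40.45 and 38.3 CPM in CCI males, 98.9 and 65.5 CPM in naive females, and 42.7 and 39.95 CPM in CCI females. The first naive female stood apart from the other naive libraries of Polr2k, and the male and female CCI libraries were close together.

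Of the 2 named members grouped as glial markers, Ncmap was highest in naive males, as the RNA-processing genes were, and Fabp7 in naive females. Sox9 and the myelin-related Cmtm5 were placed outside this group. Ncmap, a membrane protein of non-compact myelin in Schwann cells, had 268 and 215 CPM in naive males, 73.4 and 68.9 CPM in CCI males, 199 and 165 CPM in naive females, and 106 and 98.1 CPM in CCI females. Fabp7, the brain-type fatty acid-binding protein that marks satellite glia in the DRG, had 98.6 and 85.6 CPM in naive males, 44.25 and 46.5 CPM in CCI males, 106 and 102 CPM in naive females, and 59.3 and 60.4 CPM in CCI females. The CCI females lay above the CCI males in both genes. Neither gene lost its place when any single library was left out.

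Of the 20 genes of the myelinating Schwann cell list, 8 had an identifier. These came from the study's tables of genes that differed in these libraries, so calls among them were partly built in. Beside Ncmap 7 genes were tested, and all 7 were called lower in CCI males and 2, Mbp and Bcas1, in CCI females (edgeR's quasi-likelihood test, Benjamini-Hochberg adjusted). Their summed CPM was 13920 and 11640 in naive males, 3326 and 3221 in CCI males, 9305 and 7867 in naive females, and 5408 and 4038 in CCI females. Mbp and Bcas1 met the rule before the removal by name. Prx, which organises the myelinating Schwann cell's cytoplasm with Drp2, had a log2 fold change of -1.52 in males (adjusted p = 0.00565) and -0.37 in females (adjusted p = 0.102). The values for Drp2 were -1.51 (adjusted p = 0.00565) and -0.49 (adjusted p = 0.0406), the latter short of the log2 threshold of 0.5. Sox10, the glial lineage factor, had -0.76 (adjusted p = 0.00565) and -0.05 (adjusted p = 0.699), and Egr2, the master regulator of myelination, -0.60 (adjusted p = 0.0212) and 0.08 (adjusted p = 0.763). The part of myelin loss in the values of the other members was not tested.

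Secreted proteins and matrix proteins were 12 of the members with a symbol. Vegfa, the main angiogenic growth factor, had 150 and 139.5 CPM in naive males, 59.1 and 56.7 CPM in CCI males, 74.7 and 93.9 CPM in naive females, and 56.0 and 51.2 CPM in CCI females. Crispld2, a secreted glycoprotein, had the reverse order of the sexes, with 99.5 and 118 CPM in naive males and 142.5 and 134 CPM in naive females, and 52.45 and 48.7 CPM in CCI males against 89.0 and 71.0 CPM in CCI females. Esm1, a proteoglycan of activated endothelium, also lay higher in females, at 9.38 and 13.1 CPM in naive and 4.84 and 6.55 CPM in CCI rats, against 6.60 and 7.63 CPM and 3.83 and 3.18 CPM in males. Igf1, the insulin-like growth factor, had ratios of 0.442 and 0.535. Hapln2, which links hyaluronan to matrix proteoglycans, and Lcn12, a lipocalin, had ratios of 0.251 and 0.224 in males and 0.444 and 0.436 in females. Vtn, the adhesion protein vitronectin, had 99.97 and 110 CPM in naive males, 49.95 and 51.8 CPM in CCI males, 75.1 and 70.3 CPM in naive females, and 45.7 and 42.3 CPM in CCI females.

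Vtn came from a list of mural cell genes, the cells that wrap small vessels. Of the 3 others of that list tested, Pdgfrb, a pericyte receptor, was called lower in CCI males (log2 fold change -0.98, adjusted p = 0.00565) and not in females (-0.13, adjusted p = 0.369) by edgeR's quasi-likelihood test. Acta2, smooth muscle actin, was called higher in CCI males (0.53, adjusted p = 0.0159) and had -0.53 in females (adjusted p = 0.133). Cspg4, the NG2 proteoglycan, had -0.40 (adjusted p = 0.0102, short of the log2 threshold) and 0.19 (adjusted p = 0.168). The summed CPM of the 3 genes ranged from 164 to 173 in naive males, 112 to 114 in CCI males, 118 to 142 in naive females and 110 to 120.5 in CCI females.

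Immune and cell surface receptors gave some of the lowest ratios at low counts. Tnfrsf25, the death-domain receptor of the TNF family member TL1A, had 14.8 and 10.1 CPM in naive males, 1.365 and 1.72 CPM in CCI males, 3.597 and 4.95 CPM in naive females, and 2.33 and 1.535 CPM in CCI females, with ratios of 0.124 and 0.452. Ager, the receptor for advanced glycation end products, had 6.76 and 4.97 CPM in naive males, 1.07 and 1.04 CPM in CCI males, 1.96 and 3.56 CPM in naive females, and 1.49 and 0.658 CPM in CCI females. RT1-N2, a class I histocompatibility gene that belongs to a family of near-identical copies among which reads can be split, had ratios of 0.145 and 0.430. Il3ra, the interleukin-3 receptor chain, and Il17rc, a chain of the interleukin-17 receptor, had ratios of 0.247 and 0.540 and of 0.413 and 0.612. All 6 genes of this group were higher in both naive males than in both naive females, as were 116 of the 126 named members and 37.7% of genes tested.

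Intracellular signalling genes numbered 10, of which 6 still met the rule without the second naive female and 6 without the second CCI female. Rhobtb3 had 179 and 144 CPM in naive males, 78.1 and 69.8 CPM in CCI males, 116.2 and 116.3 CPM in naive females, and 80.2 and 74.0 CPM in CCI females. Plekhg2 had 185 and 151 CPM in naive males, 48.9 and 48.8 CPM in CCI males, 64.5 and 79.4 CPM in naive females, and 53.4 and 41.6 CPM in CCI females. Sphk1, which makes sphingosine 1-phosphate, had ratios of 0.253 and 0.550. The G protein subunits Gnb3 and Gng8 had ratios of 0.194 and 0.353 in males and 0.427 and 0.495 in females, and Plk5, a polo-like kinase, had 0.181 in males and 0.443 in females. In the annotation Pla2g4b, a phospholipase A2, overlaps the span of Jmjd7, which is also a member, so reads where they overlap cannot be told apart, and both had similar ratios, of 0.287 and 0.524 for Pla2g4b and 0.343 and 0.585 for Jmjd7.

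Metabolic enzymes gave 16 members, of which 9 still met the rule without the second naive female and 7 without the second CCI female. Sat1, the rate-limiting enzyme of polyamine breakdown, had 318 and 280 CPM in naive males, 106 and 109 CPM in CCI males, 183 and 178 CPM in naive females, and 116 and 91.4 CPM in CCI females. Of the other polyamine genes tested, Smox, spermine oxidase, was called lower in CCI males (log2 fold change -1.01, adjusted p = 0.00565) and had -0.33 in females (adjusted p = 0.0544), and Sms, spermine synthase, had 0.08 (adjusted p = 0.718) and -0.25 (adjusted p = 0.317) by edgeR's quasi-likelihood test. Aldh1a1, which makes retinoic acid from retinal, had 58.2 and 62.7 CPM in naive males, 29.2 and 31.1 CPM in CCI males, 78.9 and 77.9 CPM in naive females, and 45.9 and 30.2 CPM in CCI females. Its ratios of 0.498 and 0.486 were nearly equal in the sexes, and the naive females stood above the naive males. Among the other retinoid genes, Rarg, a retinoic acid receptor, and Cyp26b1, which degrades retinoic acid, were called lower in CCI males (-1.02 and -0.53, adjusted p = 0.00565 and 0.00705) and had -0.28 and 0.11 in females (adjusted p = 0.0893 and 0.631), while Rbp4, the retinol carrier, had 0.35 and -0.26 (adjusted p = 0.0713 and 0.166).

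Aox1, aldehyde oxidase, had 83.3 and 65.3 CPM in naive males, 38.4 and 40.1 CPM in CCI males, 40.3 and 45.7 CPM in naive females, and 26.4 and 21.9 CPM in CCI females. Here the males stood above the females in both conditions. Idua, a lysosomal glycosidase, had ratios of 0.335 and 0.613, Prodh1, proline dehydrogenase, 0.4785 and 0.651, and Cpt1b, the muscle form of the enzyme that admits fatty acids to mitochondria, 0.244 and 0.4145. The small heat shock protein gene Hspb2 had 20.25 and 19.4 CPM in naive males, 7.45 and 8.09 CPM in CCI males, 20.5 and 18.6 CPM in naive females, and 9.90 and 8.70 CPM in CCI females, so the naive groups overlapped. Hspb6, the other gene of that list with an identifier, had a log2 fold change of -0.04 in males (adjusted p = 0.730) and was called lower in CCI females (-0.59, adjusted p = 0.0199) by the same test.

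Cilia and centrosome genes numbered 6, among them Zmynd10, needed to assemble ciliary motors, with 9.79 and 6.555 CPM in naive males, 1.825 and 2.56 CPM in CCI males, 2.82 and 4.15 CPM in naive females, and 1.42 and 0.901 CPM in CCI females. Its ratios were 0.2685 and 0.333, and those of Spag8, a sperm and cilium protein, 0.145 and 0.457. Nrbp2, a pseudokinase of neural progenitors that falls in none of the groups, had 659 and 527.5 CPM in naive males, 207 and 191 CPM in CCI males, 240 and 323 CPM in naive females, and 209 and 166 CPM in CCI females. Also in no group were Cmtm5, a myelin-related membrane protein with ratios of 0.416 and 0.623, Aif1l, an actin-bundling protein with 0.322 and 0.611, and Sdccag3, an endosomal protein with 0.355 and 0.606. The low-count members Lrrc36 and Dqx1 had ratios of 0.2241 and 0.4755 and 0.1758 and 0.5139.

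**Figure D2:**
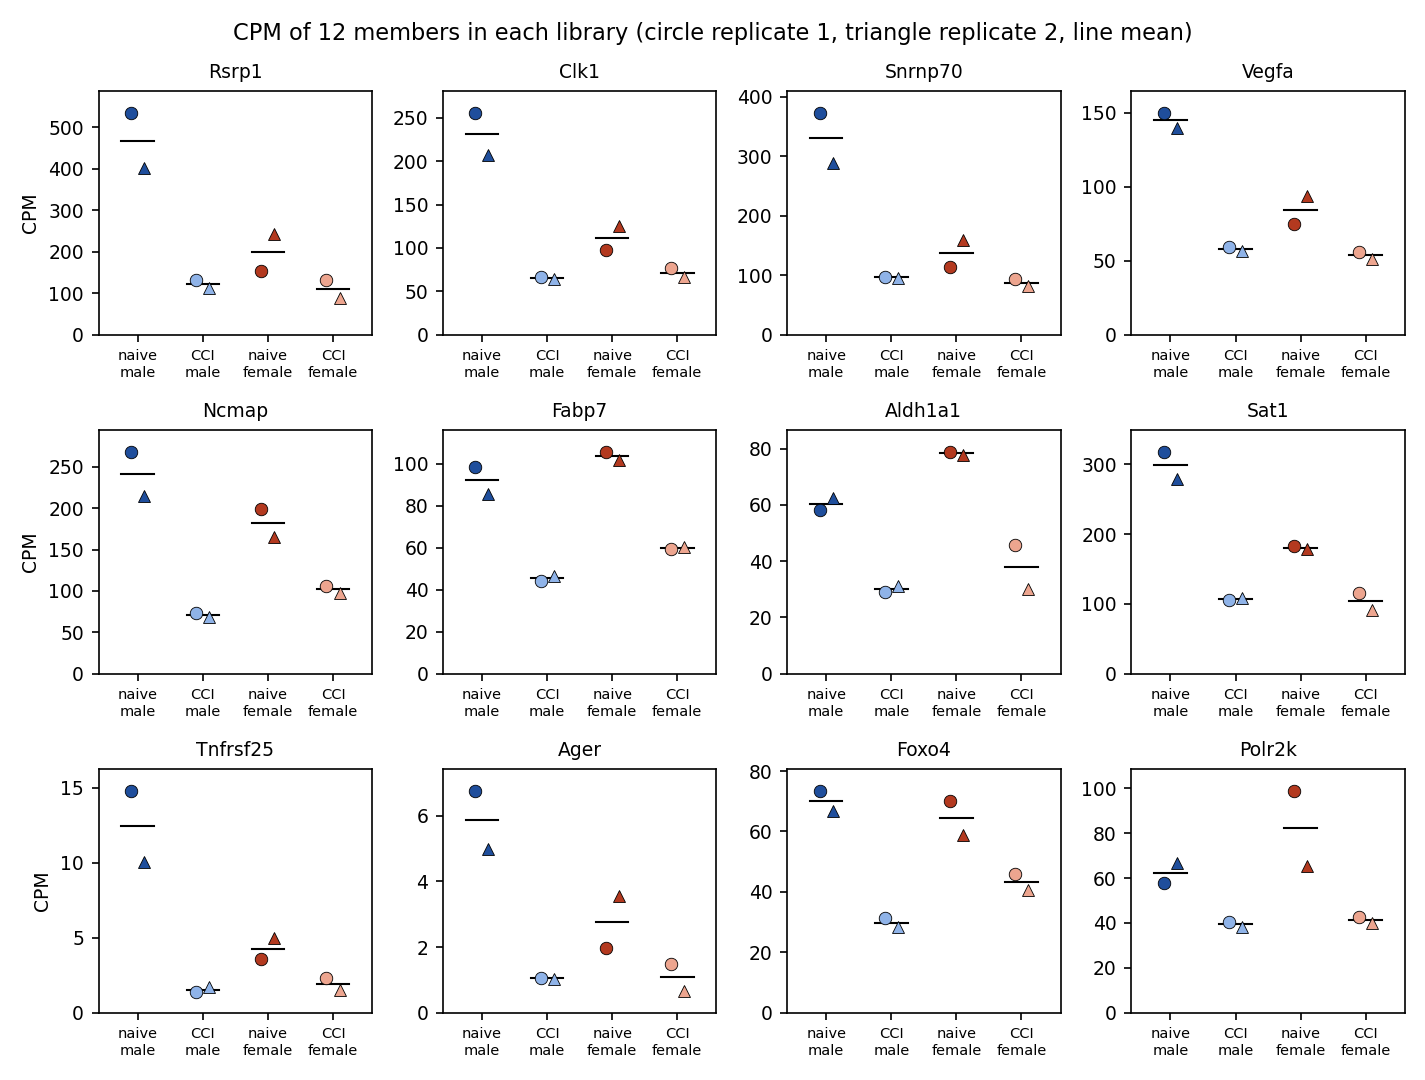
CPM of 12 members in each of the 8 libraries, with a linear axis from 0 in each panel. Circles are replicate 1, triangles replicate 2 and lines the mean of the 2 rats. Rsrp1, Clk1, Snrnp70, Tnfrsf25 and Ager stand highest in naive males, while Fabp7 and Aldh1a1 are as high or higher in naive females.

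Non-coding transcripts gave 4 members. Snhg11, a neuronal host gene of small nucleolar RNAs, had 226 and 150 CPM in naive males, 85.2 and 73.3 CPM in CCI males, 85.5 and 113 CPM in naive females, and 64.2 and 50.9 CPM in CCI females. The others are the loci of Mir770, Mir186 and Mir3546, whose spans overlap other genes of the RefSeq annotation. These are Meg3 for Mir770, Zranb2 for Mir186, and Myh6, Mir208a and LOC108352923 for Mir3546. Reads of the locus and of an overlapping gene cannot be told apart, and a count there is no measure of the mature miRNA. Mir3546 had 4.13 and 3.17 CPM in naive males, 0.608 and 0.180 CPM in CCI males, 1.24 and 1.02 CPM in naive females, and 0.886 and 0.560 CPM in CCI females. For Mir770 the ratios were 0.2175 and 0.5265, and for Mir186 0.298 and 0.430. The mature sequences that these loci encode are shown, from RefSeq on GRCr8, with the seed (bases 2 to 8) in capitals, because they name these loci, and the 5 seeds differ.
rno-miR-186-5p, chr2:249241664-249241685, plus strand: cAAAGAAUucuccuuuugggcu
rno-miR-186-3p, chr2:249241703-249241723, plus strand: gCCCAAAGgugaauuuuuugg
rno-miR-770-5p, chr6:134298094-134298115, plus strand: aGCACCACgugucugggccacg
rno-miR-770-3p, chr6:134298129-134298145, plus strand: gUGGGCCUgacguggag
rno-miR-3546, chr15:32395601-32395622, plus strand: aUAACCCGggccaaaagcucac

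Of the 126 members with a symbol, 93 matched a promoter window of RefSeq (GRCr8, 250 bases before to 50 after the gene's start). Windows are shown for the RNA-processing members Clk1 and Ccnl2, both glial markers and Aldh1a1, which had different orders of the groups in the results above. Capitals mark a GC box (GGGCGG) or a CCAAT box (CCAAT) read on either strand.
Clk1, chr9:67453131-67453430, minus strand: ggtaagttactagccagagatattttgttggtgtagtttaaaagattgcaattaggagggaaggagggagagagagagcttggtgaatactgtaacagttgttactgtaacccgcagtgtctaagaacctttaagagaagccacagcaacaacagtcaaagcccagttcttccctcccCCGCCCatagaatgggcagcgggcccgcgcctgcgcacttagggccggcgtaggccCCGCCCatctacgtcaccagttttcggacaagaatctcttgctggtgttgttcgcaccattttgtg
Ccnl2, chr5:171699525-171699824, plus strand: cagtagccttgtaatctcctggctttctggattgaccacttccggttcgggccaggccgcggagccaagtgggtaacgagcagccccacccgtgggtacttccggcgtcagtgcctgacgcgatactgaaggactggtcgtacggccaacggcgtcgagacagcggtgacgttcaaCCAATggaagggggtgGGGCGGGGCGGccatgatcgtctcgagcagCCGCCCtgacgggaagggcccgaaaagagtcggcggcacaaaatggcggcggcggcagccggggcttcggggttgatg
Ncmap, chr5:152902365-152902664, minus strand: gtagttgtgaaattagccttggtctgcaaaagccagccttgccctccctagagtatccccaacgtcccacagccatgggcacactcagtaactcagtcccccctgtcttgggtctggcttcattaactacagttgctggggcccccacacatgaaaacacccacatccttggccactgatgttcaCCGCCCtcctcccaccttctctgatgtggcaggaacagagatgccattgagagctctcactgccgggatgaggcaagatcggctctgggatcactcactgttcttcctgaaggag
Fabp7, chr20:37669356-37669655, plus strand: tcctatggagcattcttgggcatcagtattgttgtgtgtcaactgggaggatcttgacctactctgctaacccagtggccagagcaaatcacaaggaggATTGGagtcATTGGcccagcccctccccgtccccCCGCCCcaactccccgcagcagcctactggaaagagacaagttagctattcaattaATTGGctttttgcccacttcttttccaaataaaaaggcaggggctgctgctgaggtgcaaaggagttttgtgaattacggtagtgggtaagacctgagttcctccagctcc
Aldh1a1, chr1:227537370-227537669, plus strand: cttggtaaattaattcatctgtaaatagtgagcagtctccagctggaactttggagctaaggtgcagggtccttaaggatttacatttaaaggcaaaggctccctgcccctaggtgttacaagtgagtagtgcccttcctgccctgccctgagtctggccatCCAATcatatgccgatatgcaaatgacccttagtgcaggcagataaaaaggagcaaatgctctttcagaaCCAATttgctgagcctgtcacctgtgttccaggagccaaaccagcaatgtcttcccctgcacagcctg

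A GC box was found on either strand in 43 of the 93 windows (46.2%), against 36.0% of 27457 genes with a window, and a CCAAT box in 44.1% against 39.6%. A TATA box (TATAAA) was found in 7.5% against 15.3%, and an E-box (CACGTG) in 5.4% against 7.1%. The SOX letters ACAAAG stood in 18.3% against 19.7%, the AP-1 letters TGANTCA in 5.4% against 8.0%, and the EGR letters GCGNGGGCG, which overlap the GC box, in 6.5% against 5.5%. The loose metal response letters TGCNCNC stood in 65.6% against 52.0%. The remaining letters searched were those of the CRE (TGACGTCA, 3.2% against 2.0%), the sterol regulatory element (TCACNCCAC, 2.2% against 1.3%), the heat shock element (GAANNTTC, 8.6% against 9.1%), the REV-ERB or ROR element (AGGTCA, 15.1% against 16.9%) and the D-box (TTATGNAA, 4.3% against 3.9%). The median share of G and C in the windows was 56.7% for the members and 52.3% for all genes, and its part in the motif shares was not tested. Unlike the members, the 27457 genes were not limited to a mean CPM of at least 1. The part of expression in the motif shares was not tested either. Of the 7 members of the retained-intron list with a window, 4 held a GC box and 2 a CCAAT box. The windows of Snrnp70 and Pnisr, not shown, held 0 of either. These are matches of letters and do not show a bound factor.

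The rule did not use the comparison between the sexes, although it used the same libraries, so that comparison was tested across all 16988 genes. In naive rats the members leaned to males. The log2 fold change of females against males had a median of -0.43 over the members and -0.01 over all genes tested, and it was below 0 for 375 of 476 members (78.8%) against 50.8% of genes. Both naive males lay above both naive females for 327 members (68.7%), against 37.7% of genes, and both naive females above both naive males for 37 (7.77%), against 21.3%. An unadjusted p under 0.05 was reached by 227 members (47.7%) against 25.6% of genes.

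Few of these differences passed the threshold after adjustment. With p-values of edgeR's quasi-likelihood test adjusted by Benjamini-Hochberg, 1 member was called higher in naive females, where 0.0177% of genes were, and 0 in naive males, where 0.053% were. Adjusted p-values of the members had a median of 0.210, and 10% of them were at or below 0.0954, which is also the value of Snrnp70, Clk1, Pnisr, Vegfa and Sat1. DESeq2 on the same libraries called 142 members higher in naive males, against 4.88% of its genes, and 7 higher in naive females, against 1.8%. A single edgeR fit over all 8 libraries called 109 and 3 members, against 4.08% and 1.25% of genes. Without the second naive male, edgeR called 58 members higher in males. Without the filter on low counts it called 43. The causes of these differences were not tested.

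In CCI rats the members' median difference between the sexes lay close to that of all genes, with a smaller lean to males. The log2 fold change of females against males was below 0 for 263 of 476 members (55.3%) against 49.4% of genes. Its lowest 10% lay at or below -0.51 in the members and -0.34 in all genes tested. The median log2 fold change of females against males was -0.04 over the members and 0.00 over all genes tested, and an unadjusted p under 0.05 was reached by 93 members (19.5%) against 18.3% of genes. Both CCI males lay above both CCI females for 129 members (27.1%), against 26.5% of genes, and both CCI females above both CCI males for 86 (18.1%), against 25%. By edgeR's quasi-likelihood test, 3 members were called higher in CCI females, where 0.524% of genes were, and 3 in CCI males, where 0.536% were. The rule used these same libraries, and the shift of the medians from naive to CCI rats was not tested.

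**Figure D3:**
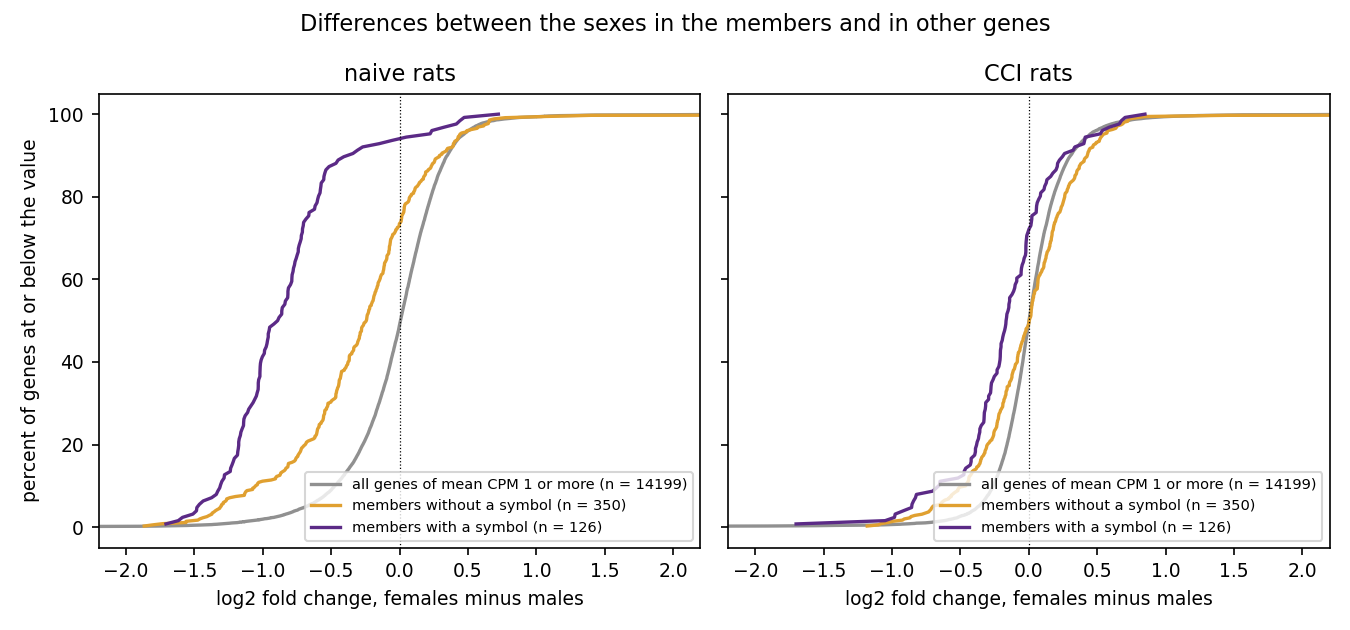
Cumulative share of genes (percent) at or below each log2 fold change of females against males, in naive rats on the left and CCI rats on the right. Purple is the 126 members with a symbol, orange the 350 without, and grey all genes with a mean CPM of at least 1. In naive rats the purple curve has its median at -0.89 and the orange at -0.24, and in CCI rats at -0.16 and 0.00.

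The lean to naive males had a larger median in the members with a symbol (median log2 fold change -0.89) than in those without (-0.24), and the symbols came from tables that list sex differences of these libraries. Over all 1960 genes tested with a symbol the median was -0.20. Of the 126 with a symbol, 116 were higher in both naive males than in both naive females, against 37.7% of all genes tested. The reverse held for 4 (Fabp7, Aldh1a1, Crispld2 and Esm1), against 21.3%. How much of this came from the source of the symbols was not tested.

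Ncmap was the named member called higher in CCI females, with 102 ± 5.601 CPM against 71.1 ± 3.19 CPM in CCI males (mean ± SD, n = 2). Its log2 fold change was 0.52 with an SE of 0.07 (adjusted p = 0.0376, edgeR's quasi-likelihood test), and both CCI females lay above both CCI males. In naive rats Ncmap had a log2 fold change of -0.34 (adjusted p = 0.256). Aox1 was called higher in CCI males, with 39.3 ± 1.18 CPM against 24.1 ± 3.21 CPM in CCI females, and a log2 fold change of -0.70 with an SE of 0.10 (adjusted p = 0.0417). In naive rats its log2 fold change was -0.73 with an SE of 0.14 (adjusted p = 0.0969). Both calls were lost with the replicate block (adjusted p = 0.0768 for Ncmap and 0.0969 for Aox1), with all 8 libraries in 1 fit (0.124 and 0.05615), without the first CCI female (0.259 and 0.140) and without the second (0.162 for both) by edgeR's quasi-likelihood test. Ncmap also missed the log2 threshold without the second CCI male (log2 fold change 0.48).

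The member called higher in females in both conditions was ENSRNOG00000051257, which the sources used here do not name. It had 3511 and 2950 counts in naive females and 1894 and 1368 in CCI females, but 5 and 4 in naive males and 3 and 1 in CCI males. In naive rats the female level was 819 times the male level with an exact 95% counting interval of 431 to 1791, and in CCI rats 1122 times with an interval of 438 to 4120 (counting error only). Adjusted p-values were 9.1e-05 and 0.000332 by edgeR's quasi-likelihood test. In males its place among the members thus rests on 9 naive and 4 CCI counts, while in females it had 73.9 and 71.95 CPM in naive and 47.96 and 33.3 CPM in CCI rats. The other 3 members called between CCI rats have no symbol (females had the higher level in 1 and males in 2). All 3 calls were lost in the same 4 fits, whereas ENSRNOG00000051257 was called in each of the alternative fits.

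The member with the most counts, ENSRNOG00000022619, also has no symbol. It had 5295 and 4942 CPM in naive males, 2820 and 2936 CPM in CCI males, 6217 and 5754 CPM in naive females, and 4636 and 3186 CPM in CCI females, with ratios of 0.562 and 0.653.

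**Figure D4:**
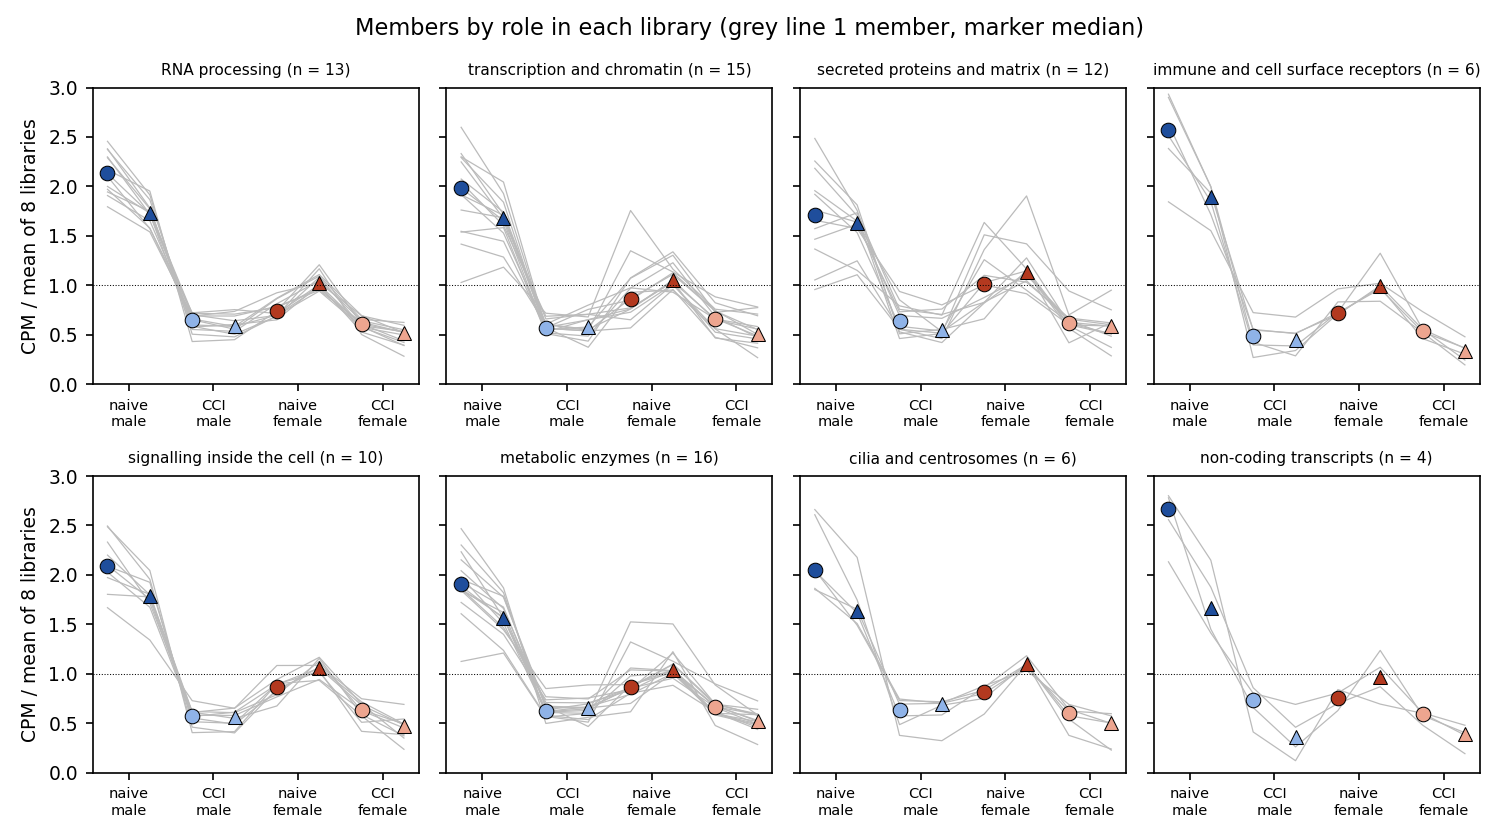
CPM of each member divided by its own mean over the 8 libraries, for 8 groups of members by role. Grey lines are single members, circles the median of the group in replicate 1 and triangles in replicate 2. The RNA-processing median is 2.13 and 1.73 in the naive males but 0.742 and 1.03 in the naive females, and 0.521 to 0.653 in the 4 CCI libraries.

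In the other groups plotted by role, the medians of both naive males lay above those of both naive females as well. Only the medians of the 2 members grouped as glial markers, which are not plotted, overlapped (1.55 and 1.29 in naive males, 1.37 and 1.23 in naive females). Neither gene itself overlapped, as Ncmap was higher in both naive males and Fabp7 in both naive females. The median relative level was 2.57 and 1.89 in naive males for the immune and surface receptors against 0.725 and 0.989 in naive females, and 1.71 and 1.63 against 1.02 and 1.14 for the secreted and matrix proteins. The members as a whole were higher in the first naive male than in the second for 77.7% of members, against 49.9% of genes tested, and higher in the first CCI female than in the second for 83.2%, against 57.6%. In the naive females 33.8% were higher in the first, against 40.0% of genes, and in the CCI males 58.4%, against 50.5%.

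Of the 25 gene lists, 18 held no member, and 2 of these had no gene with an identifier. Over all lists, 75 genes with an identifier are no member. By edgeR's quasi-likelihood test 18 of them were called higher and 24 lower in CCI males, against 9.05% and 12.5% of all genes tested. In CCI females 4 were called higher and 18 lower, against 3.69% and 2.0%. Their identifiers came from the study's tables of genes that differed in these libraries, so calls among them were partly built in. Of 10 sensory neuron genes listed, the 3 with an identifier, Avil, Nefh and Calca, were called higher in CCI males. Their log2 fold changes were 0.70, 0.65 and 0.91 in males and 0.32, 0.23 and 0.24 in females (adjusted p in females = 0.0619, 0.204 and 0.2985, the same test). Of 9 fibroblast genes listed 6 had an identifier. Of these 6, 5 were called lower in CCI males (median log2 fold change of all 6 -0.66), and the median in females was -0.13. Without the first CCI male edgeR called 0 of the 75 genes in males in either direction, and without either CCI female it called 1 higher and 9 lower in females. The parts of these cell types in the members' values were not tested.

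At the limit of the rule, the members just inside were Foxo4 with a female ratio of 0.6698, a gene without a symbol with a male ratio of 0.6697, and Cyp4f6, a fatty acid hydroxylase, with a female ratio of 0.6696. The genes just outside, all without a symbol, had a larger ratio of 0.67 after rounding, 0.6702 and 0.6704. CPM of plain totals also put the median log2 ratio of CCI to naive over all genes at -0.15 in males and -0.08 in females, and TMM scaling shifted it by 0.13 and 0.07. With TMM scaling 328 of the 476 members still met the rule. Of the retained-intron list, Snrnp70, Clk1, Clk4, Ccnl2 and Mbd6 then lay above the limit in females (0.6726, 0.6727, 0.687, 0.692 and 0.6999). Rsrp1, Pnisr and Ccnl1 stayed below it (0.580, 0.586 and 0.644). Nrbp2, Plekhg2, Cirbp and Akap8l, among others, also exceeded the limit in females, and Polr2k in males.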

How the data were processed

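Poly(A) RNA of the L4-L6 DRGs of 8 rats was sequenced from strand-specific libraries, 2 per group. The authors aligned reads to rn6 with HISAT2 (base calls by CASAVA 1.8.2 per the submitters' processing notes) and deposited raw counts per Ensembl gene made with featureCounts. Whether counting used the strand, and which libraries belonged to the 2 sequencing batches in the methods, is not given in the sources used here. All per-sample columns were mapped to a library. The members and the gene lists were chosen with earlier results of these data known, and roles were assigned afterwards.

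From the deposited counts, CPM was computed with plain column totals (Python 3.11.15, pandas 2.3.3, numpy 2.4.6). Differences were tested with edgeR 4.0.16 (R 4.3.3), filterByExpr with a minimum count of 10, TMM scaling and the quasi-likelihood test, on the 4 libraries of each comparison. A call needed a Benjamini-Hochberg adjusted p under 0.05 and an absolute log2 fold change over 0.5. The procedure was also run on simulated counts, and the outcome of that run is not given here. DESeq2 1.42.0, other scalings, other filters, a replicate block and leaving out each library were alternatives. An exact permutation test of 2 against 2 cannot go below a 2-sided p of 0.3333. Counting intervals cover counting error only.

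Named genes were the 25 named members with the highest naive mean CPM, the 15 with the lowest geometric mean of both ratios, members on a gene list, members called between the sexes, the 3 genes on each side of the ratio limit, and up to 4 other genes of each list that held a member. Symbols came from the study's tables, and sequences from RefSeq on GRCr8. No coordinates were converted between builds. The authors' own fold changes and p-values were not used.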

Additional observations from a re-analysis of the deposited data

Results flagged for a closer look

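For 14 genes of the lists that are no member, the log2 fold change of CCI against naive differed between females and males by a test of the difference itself (the interaction term of edgeR's quasi-likelihood test, females minus males). The lists were matched through the study's tables, which name genes that differed in these libraries, many of them between the sexes. A difference in these 14 was thus partly built in, and the share of all genes that passed is not given here. In the myelinating Schwann cell list the difference was 1.167 for Prx (adjusted p = 0.0475), 1.033 for Drp2 (adjusted p = 0.0483), 1.03 for Mag (adjusted p = 0.0483) and 0.7244 for Sox10 (adjusted p = 0.04115). It was 0.8598 for Pdgfrb (adjusted p = 0.0469) and 0.6026 for Cspg4 (adjusted p = 0.04115) of the mural cell list, and 0.6652 for the fibroblast collagen Col3a1 (adjusted p = 0.0430). It was 0.7532 for Rarg (adjusted p = 0.0483), a retinoic acid receptor, 0.7021 for Smox (adjusted p = 0.0405), spermine oxidase, 1.075 for the clock activator Arntl (adjusted p = 0.0402) and 1.033 for Cebpd (adjusted p = 0.0405), a glucocorticoid-responsive factor. In 3 genes the difference had the other sign, -1.058 for the clock output factor Dbp (adjusted p = 0.0405), -2.072 for the muscle gene Casq1 (adjusted p = 0.04115) and -4.274 for the muscle gene Mybpc1 (adjusted p = 0.0405).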

How the results depend on the processing

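Of the 476 members, 79 met a ratio limit of 0.5 and 243 a minimum mean CPM of 5, while 1078 genes met a limit of 0.75. TMM scaling kept 328 and DESeq2 size factors 344. Leaving out 1 library gave 336 to 830 genes, and the 830 came without the first CCI female (458 of them members). Fewer members stayed without the second naive female (416 genes, 320 of them members) and without the second CCI female (336 genes, 292 of them members). Members called higher in naive females (1) were 7 with DESeq2, 2 without the filter on low counts, 3 with all 8 libraries in 1 fit and 1 to 2 with a library left out. Those called higher in naive males (0) were 142, 43, 109 and 0 to 58, with the 58 found without the second naive male. Those called higher in CCI females (3) were 9 with DESeq2, 8 without the filter and 1 to 13 with a library left out (13 without the first and 6 without the second CCI male, 1 without either CCI female). With all 8 libraries in 1 fit 2 were called (1 of the 3). Those higher in CCI males (3) were 9, 5 and 0 to 7 (5 without the first and 7 without the second CCI male, 0 without either CCI female), and 2 with all 8 libraries in 1 fit, 0 of them among the 3. Of the list genes that are no member, 18 were called higher in CCI males, and 0 to 24 with a library left out (0 without the first and 9 without the second CCI male). The 24 called lower in CCI males became 0 to 32, the 4 higher in CCI females 1 to 5, and the 18 lower in CCI females 9 to 25, or 7 with all 8 libraries in 1 fit. A library left out leaves 1 sample in its group, which is then assumed to vary like the others. The causes were not tested. Ratios of named genes under other scalings moved by less than the spread between rats in 188 of 204 cases, and 0 reversed.

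With the replicate block, members called were 1 and 0 in naive rats (higher in females and in males) and 1 and 0 in CCI rats, and list genes were 19 higher and 25 lower in males and 4 higher and 19 lower in females. Replicate numbers gave 2 pairs per comparison and do not mark a shared batch in the labels. The correlation of same-numbered deviations was 0.129 between naive groups, -0.02 between CCI groups, 0.731 in males and -0.00788 in females.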

Other observations

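Among list genes that are no member, skeletal muscle genes had higher values in CCI males than in the other groups. Their summed CPM was 78.0 and 83.4 in CCI males, 9.89 and 21.1 in naive males, 18.5 and 6.27 in naive females, and 5.29 and 5.90 in CCI females, and 4 of the 5 genes were called higher in CCI males by edgeR's quasi-likelihood test. Arntl, the core clock activator also known as Bmal1, had 43.2 and 41.25 CPM in naive males, 16.7 and 16.6 CPM in CCI males, 41.0 and 43.5 CPM in naive females, and 38.4 and 34.96 CPM in CCI females. Its log2 fold change was -1.21 in males (adjusted p = 0.00565) and -0.14 in females (adjusted p = 0.310) by the same test, and the interaction was 1.075 (adjusted p = 0.0402). Both were chosen after their values were seen.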
